A study of Mus musculus with 3 samples.

Results

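Sumo2, its processed copies Gm10241, Gm12335 and Gm13690, its paralog Sumo3, and the tandem genes Srp54a, Srp54b and Srp54c were followed across 3 RNA-seq libraries of prelimbic cortex (PrL). These 8 genes were taken by symbol from the 54532 genes of the expression table, and all 8 had a mean FPKM of at least 0.1, the minimum for a fold change here, as did 20203 genes in all. They were chosen with their values in these same libraries known, so their fold changes are a description. Adult male C57BL/6J mice were 6 to 8 weeks old when purchased, before an acclimatization period. They received rAAV (serotype AAV/9) in the PrL of both hemispheres and then went through 5 weeks of chronic unpredictable mild stress (CUMS). CUMS is a changing series of mild stressors. The CUMS vehicle group carried rAAV-hSyn-bGH-polyA-CMV-EGFP, a vector with no insert behind hSyn. The CUMS oe-circ group carried the same backbone with circFKBP8(5S,6), a circular RNA, and the CUMS oe-pep group carried the sequence of its encoded protein cFKBP8 behind the same promoter, with a 3×Flag tag and P2A-EGFP. The hSyn promoter is active in neurons, whereas RNA was taken from whole tissue. Each group had 1 library, the number of mice behind it is not given in the sources used here, and no difference below has a replicate check.

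SUMO proteins are small ubiquitin-like modifiers that are attached to lysines of other proteins and removed again. Attachment runs through an activating enzyme, a conjugating enzyme and ligases, and proteases of the SENP family mature and remove them. Sumo2 and Sumo3 encode closely related forms that can build chains. Srp54 encodes the GTPase subunit of the signal recognition particle, which binds the signal sequence of a nascent protein and brings its ribosome to the endoplasmic reticulum (ER). A processed pseudogene is a reverse-transcribed copy of an mRNA that was put back into the genome without introns.

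The copies of Sumo2 carry its coding sequence almost letter for letter. The longest annotated Sumo2 transcript has 1051 bases in 4 exons, of which bases 159 to 446 encode the protein. Gm10241 is 286 bases long and was identical to Sumo2 over coding positions 1 to 286, across all 3 exon junctions, with 0 mismatches. The exon pieces joined in it were 21, 132, 72 and 61 bases long. Gm12335 matched Sumo2 over 327 bases at 99.1% identity, and Gm13690 over 285 bases at 99.3%. Positions are counted from the first base of the start codon. Gm12335 differed by T111A, T139C and T251C, and Gm13690 by C45T and G108A. Capitals below mark these positions in the coding sequence of Sumo2 and the differing bases of each copy. They are shown because these 5 letters are all that separates a read of Sumo2 from a read of these copies over the coding sequence. Gm10241 would be the Sumo2 line without its last 2 bases.
Sumo2: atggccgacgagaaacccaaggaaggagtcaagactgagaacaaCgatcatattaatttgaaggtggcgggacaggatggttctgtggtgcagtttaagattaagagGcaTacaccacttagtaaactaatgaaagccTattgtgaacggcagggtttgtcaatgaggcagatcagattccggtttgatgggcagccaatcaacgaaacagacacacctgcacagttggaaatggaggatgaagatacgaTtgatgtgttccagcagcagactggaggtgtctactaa
Gm12335: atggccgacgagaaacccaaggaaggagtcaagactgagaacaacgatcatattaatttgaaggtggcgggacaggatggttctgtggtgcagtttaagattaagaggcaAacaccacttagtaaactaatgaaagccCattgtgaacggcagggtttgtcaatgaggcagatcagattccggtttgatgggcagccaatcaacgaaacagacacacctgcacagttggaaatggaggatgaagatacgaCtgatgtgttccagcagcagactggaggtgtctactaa
Gm13690: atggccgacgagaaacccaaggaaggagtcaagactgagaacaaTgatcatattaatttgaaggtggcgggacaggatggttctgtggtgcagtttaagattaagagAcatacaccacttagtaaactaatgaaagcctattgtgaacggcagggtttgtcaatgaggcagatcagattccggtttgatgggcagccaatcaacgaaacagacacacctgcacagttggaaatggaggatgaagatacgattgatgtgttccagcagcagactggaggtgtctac
Sumo3 is a separate gene whose coding sequence was 82.5% identical to that of Sumo2 over 269 aligned bases.

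The Srp54 genes are full copies rather than pseudogenes. Each has 16 exons in its longest transcript and a coding sequence of 1515 bases. The coding sequences of Srp54a and Srp54b were identical, with 0 mismatches. Srp54c differed from both at 6 positions, namely T501C, T945C, G946A, T965G, A1197T and G1249A. The 61-base stretches that hold these positions are printed for Srp54b and Srp54c, with the differing bases in capitals. Those of Srp54a read as Srp54b.
Srp54b, 471 to 531: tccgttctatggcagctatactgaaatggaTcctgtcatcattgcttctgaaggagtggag
Srp54c, 471 to 531: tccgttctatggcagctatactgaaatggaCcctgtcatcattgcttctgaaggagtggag
Srp54b, 925 to 985: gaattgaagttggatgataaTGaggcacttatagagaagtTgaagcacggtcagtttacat
Srp54c, 925 to 985: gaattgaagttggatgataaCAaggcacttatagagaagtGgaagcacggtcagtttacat
Srp54b, 1193 to 1253: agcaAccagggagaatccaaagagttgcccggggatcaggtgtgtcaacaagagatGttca
Srp54c, 1193 to 1253: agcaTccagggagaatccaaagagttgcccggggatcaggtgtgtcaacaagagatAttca
Outside the coding sequence, Srp54a differed from Srp54b at 12 positions of the 5′ UTR, and both Srp54a and Srp54c lacked 4 bases of its 3′ UTR. Over the aligned transcripts the identity was 99.6% between Srp54a and Srp54b and 99.7% between Srp54b and Srp54c.

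The copies lie apart for Sumo2 and side by side for Srp54. In mm10, Sumo2 spans chromosome 11, 115523102 to 115536276, on the minus strand. Gm10241 lies on chromosome 16, 20176727 to 20177012, in an intron of Yeats2, a histone-reader gene of the opposite strand. Gm12335 lies on chromosome 11, 75066436 to 75066762, in an intron of Smg6. Gm13690 lies on chromosome 2, 80629284 to 80629568, in an intron of Dusp19. Both copies are again opposite to these host genes. The span of Nup35 also covers Gm13690, but its exons were not checked there. Sumo3 spans chromosome 10, 77606097 to 77618331, on the plus strand. Srp54a (55080262 to 55115367), Srp54b (55155104 to 55189573) and Srp54c (55230168 to 55263836) follow each other on the plus strand of chromosome 12, with starts 74842 and 75064 bases apart.

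How much of each transcript a read could tell apart was described with 100-base windows searched in all annotated transcripts. All 187 windows of Gm10241 also occurred in Sumo2. Of the 952 windows of Sumo2, 19.9% were shared with another gene, and they covered the coding part, so that most of its transcript was its own. The shares were 41.9% in Gm13690, 10.1% in Gm12335 and 0% in Sumo3, not counting a transcript that overlaps Sumo3 in the genome. They were 72.1% in Srp54a, whose transcript is the longest of the 3 at 4498 bases, 98.4% in Srp54b and 89.5% in Srp54c. With windows of 50 bases, Gm12335 shared 66.2% and Gm13690 76.3%, and with windows of 150 bases 0% and 20.6%. The length of the reads and the treatment of reads that fit several places are not given in the sources used here. The values of single copies are therefore uncertain, and sums over copies stand beside them below.

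**Figure D1:**
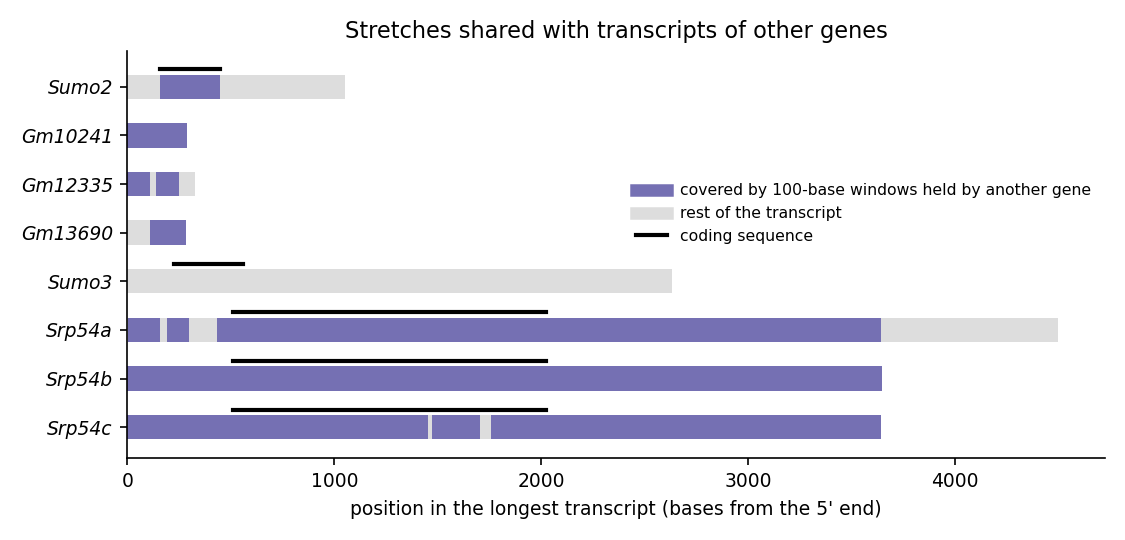
Longest annotated transcript of each gene, with position in bases on the x axis. Purple marks stretches covered by 100-base windows that a transcript of another gene also holds, grey the rest, and the black line the coding sequence. All of Gm10241 is purple, Sumo2 is purple over its coding sequence only, and 1.64% of the windows of Srp54b were its own.

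Reads behind the FPKM values (fragments per kilobase of gene length, scaled to the mapped reads) were recovered as whole numbers. Reads in genes numbered between 14413544 and 18084058 per library, and the median log2 fold change of all 20203 genes was within 0.01 of 0 in each comparison. Changes are given as log2 fold changes of FPKM + 0.1, and intervals are exact 95% intervals that cover counting error and compare libraries, not groups. Defining genes of cortical excitatory neurons were present in each library, with none of 10 at 0 reads and summed FPKM of 788 (vehicle), 934 (oe-circ) and 832 (oe-pep). Genes of other cell types also differed between libraries. In the same order, the summed FPKM of 10 genes of striatal projection neurons was 727, 242 and 596, that of 10 oligodendrocyte genes 1037, 884 and 1543, and that of 5 blood genes 275, 311 and 403. The sums of 8 astrocyte genes ranged from 618 to 666 and those of 8 microglia genes from 182 to 200. The cortical genes were above 0 on the log2 scale in 10 of 10 cases in oe-circ against vehicle (0.17 to 0.65). In oe-pep against vehicle 9 of 10 were above 0. The oligodendrocyte genes were above 0 in 10 of 10 cases in oe-pep against vehicle (0.17 to 0.69). In oe-circ against vehicle 10 of 10 striatal genes were past 2-fold lower, where 6.42% of all 20203 genes were. The part of these cell types in the values below was not tested. In whole tissue, fewer cells of a type cannot be told apart from less RNA per cell.

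Sumo2 was high in the CUMS oe-pep library. It had 273 reads in vehicle, 193 in oe-circ and 1020 in oe-pep, which is an FPKM of 8.50, 7.64 and 35.1. The vehicle and oe-circ libraries were close and the oe-pep library stood above both. The ratio of oe-pep to oe-circ was 4.59 (3.93 to 5.38). For oe-circ against vehicle it was 0.899 (0.744 to 1.09), an interval that includes 1. In oe-pep against vehicle its log2 fold change was 2.03, the 3rd highest of the 14551 genes that averaged 20 or more reads.

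Gm10241, the identical copy, was low in the CUMS oe-pep library. Its reads numbered 548, 521 and 120 in the vehicle, oe-circ and oe-pep libraries, which on its short length is an FPKM of 103.5, 125.2 and 25.1. The first 2 libraries were high and the oe-pep library was low. Its FPKM in oe-pep was 4.13-fold lower than in vehicle (3.39 to 5.08), log2 −2.04, the 4th lowest of the 14551 genes, and 5.00-fold lower than in oe-circ (4.09 to 6.15). In oe-circ it was 1.21 times that in vehicle (1.07 to 1.37). Thus its size of change in oe-pep was nearly that of Sumo2 with the sign turned, 4.13-fold in each case. In RPM, here reads scaled to 1000000 reads in genes per library, Sumo2 stood at 15.1 in vehicle and 62.2 in oe-pep, a difference of 47.1, and Gm10241 at 30.3 and 7.31, a difference of −23.0, so the difference in Sumo2 was the larger in reads.

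The other processed copies followed here had few reads. Gm13690 had 2, 3 and 9 reads in vehicle, oe-circ and oe-pep, and its ratio of oe-pep to vehicle was 4.97 with a wide interval (1.03 to 47.3). Gm12335 had 3, 1 and 0 reads, all at or under the floor of 3 reads, so no fold is given. These values allow no ordering of the libraries for Gm12335. For Gm13690 they allow none between vehicle and oe-circ or between oe-circ and oe-pep. Smt3h2-ps4, a further annotated copy that is not in the sum below, had 15, 11 and 11 reads in vehicle, oe-circ and oe-pep.

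Sumo3 stayed close to the same level. It had 1908, 1381 and 1565 reads in the vehicle, oe-circ and oe-pep libraries, an FPKM of 28.2, 25.9 and 25.5. Its ratio to vehicle was 0.921 (0.858 to 0.987) in oe-circ and 0.906 (0.847 to 0.970) in oe-pep, and the ratio of oe-pep to oe-circ was 0.985 (0.915 to 1.06). Both differences from vehicle were slightly larger than counting error. Sumo3 was above Sumo2 in FPKM in the vehicle and oe-circ libraries and below it in the oe-pep library.

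Srp54b was low in the CUMS oe-pep library. It had 318, 174 and 44 reads in the vehicle, oe-circ and oe-pep libraries, an FPKM of 3.81, 2.65 and 0.582. The 3 libraries were apart from each other, with vehicle highest and oe-pep lowest. On the log2 scale its change in oe-pep against vehicle was −2.52, the 2nd lowest of the 14551 genes. Its FPKM in oe-circ was 1.44-fold lower than in vehicle (1.19 to 1.74), and in oe-pep 4.55-fold lower than in oe-circ (3.25 to 6.49), the 9th lowest in that comparison.

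The other Srp54 genes on chromosome 12 differed less between libraries. Srp54a had 117, 83 and 71 reads, an FPKM of 1.19, 1.07 and 0.796, and was 1.49-fold lower in oe-pep than in vehicle (1.10 to 2.03). Its ratio of oe-circ to vehicle was 0.902 (0.673 to 1.21). Srp54c had 314, 260 and 265 reads, an FPKM of 4.66, 4.91 and 4.34, and its ratios to vehicle of 1.05 (0.890 to 1.25) in oe-circ and 0.933 (0.789 to 1.10) in oe-pep both had intervals that include 1. Srp54b and Srp54c thus held about equal reads in the vehicle library, whereas in the oe-pep library 44 stood against 265.

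**Figure D2:**
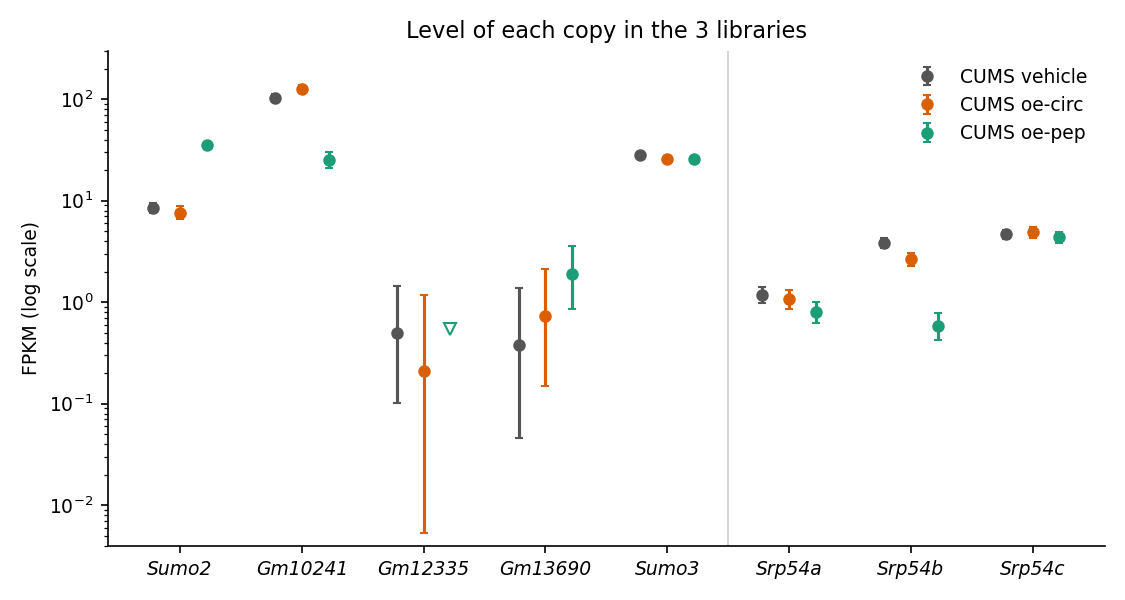
FPKM of each gene (y axis, log scale) for CUMS vehicle (grey), oe-circ (orange) and oe-pep (green) libraries, with exact 95% Poisson intervals that cover counting error; the open triangle is the FPKM of 3 reads for the library of Gm12335 with 0 reads. Sumo2 stands at 35.1 in oe-pep against 8.50 and 7.64, and Gm10241 at 25.1 against 103.5 and 125.2.

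By the size of the change alone, 0 of the 8 genes were past 2-fold in oe-circ against vehicle, where 3.50% of all genes were past it upward and 6.42% downward. In oe-pep against vehicle 2 of 8 were past it upward (Sumo2 and Gm13690; 4.54% of all genes) and 3 downward (Gm10241, Gm12335 and Srp54b; 4.93%). The same genes were past it in oe-pep against oe-circ, with 6.26% of all genes upward and 4.31% downward. The comparisons share libraries, and the genes were chosen from these contrasts, so nothing is read from these counts. Of the 6 genes with at least 20 reads on average, 0 were past 2-fold in oe-circ against vehicle (0.33% of such genes upward and 1.04% downward). In oe-pep against vehicle 1 was past it upward and 2 downward (0.364% and 0.385%), and likewise in oe-pep against oe-circ (0.921% and 0.33%). Gm12335 is counted among the 8 genes but not among these 6. Its place past 2-fold depends on the size of the added value, and it has too few reads for a fold. With a pseudocount of 1, Gm12335 in both oe-pep comparisons and Gm13690 in oe-pep against oe-circ were within 2-fold.

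The order of levels by FPKM, a measure per length, changed between libraries. In the vehicle library Gm10241 was highest at 103.5, followed by Sumo3, Sumo2, Srp54c (4.16 to 5.20), Srp54b (3.40 to 4.25) and Srp54a. The intervals of Srp54c and Srp54b overlapped by a narrow margin, which does not show that their levels were equal. In the oe-circ library the order was the same, from Gm10241 at 125.2 down to Srp54a at 1.07. Gm13690 and Gm12335 lay below Srp54a in the vehicle and oe-circ libraries. The intervals of Srp54c (4.33 to 5.54) and Srp54b (2.27 to 3.07) did not overlap in oe-circ. In the oe-pep library Sumo2 (33.0 to 37.3) was above Sumo3 (24.3 to 26.8), and Sumo3 did not differ beyond counting error from Gm10241 (20.8 to 30.0). Srp54a (0.622 to 1.004) and Srp54b (0.423 to 0.781) also overlapped there, and Gm13690, at 1.89 with an interval of 0.862 to 3.58 from 9 reads, stood above both in level but overlapped Srp54a.

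Summed over Sumo2 and the 3 copies followed here, the difference between libraries was smaller. The sum was 826, 718 and 1149 reads in the vehicle, oe-circ and oe-pep libraries, or 45.7, 49.8 and 70.0 RPM. The oe-pep sum was 1.53 times the vehicle sum (1.40 to 1.68) and 1.41 times the oe-circ sum (1.28 to 1.55). In oe-circ the ratio to vehicle was 1.09 (0.985 to 1.21), which includes 1. The sum of FPKM gave the opposite direction, with 112.9, 133.8 and 62.0 and a ratio of oe-pep to vehicle of 0.549, because a read of the 286-base Gm10241 weighs more in FPKM than a read of Sumo2, whose gene length is 1736 bases. With Sumo3 added to the reads, the ratio of oe-pep to vehicle was 1.09 (1.04 to 1.15).

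The division of this sum among the genes differed more than the sum. Sumo2 held 33.1% of the reads in the vehicle library (29.8% to 36.4%), 26.9% in oe-circ (23.7% to 30.3%) and 88.8% in oe-pep (86.8% to 90.5%). Gm10241 held 66.3% (63.0% to 69.6%), 72.6% (69.1% to 75.8%) and 10.4% (8.74% to 12.4%). The shares have exact Clopper-Pearson intervals. As shares of summed FPKM, Sumo2 held 7.53%, 5.71% and 56.6% and Gm10241 91.7%, 93.6% and 40.4% in the vehicle, oe-circ and oe-pep libraries, so that the oe-pep library stood apart on both scales but Gm10241 weighed more in FPKM. The read shares of Sumo2 and Gm10241 in the oe-pep library lay far from those in the vehicle and oe-circ libraries. The intervals of Sumo2 in vehicle and oe-circ overlapped by a narrow margin, which does not show that these shares were equal. Gm12335 and Gm13690 together had at most 9 reads in any library.

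Summed over the Srp54 genes, reads were fewest in oe-pep. The sum was 749, 517 and 380 reads, or 41.4, 35.9 and 23.2 RPM. The oe-pep sum was 1.79-fold lower than the vehicle sum (1.58 to 2.03), and the oe-circ sum 1.15-fold lower (1.03 to 1.29). On this scale none of the 3 genes was higher in oe-pep than in vehicle, and oe-pep minus vehicle was −18.3 for the sum, −14.9 for Srp54b, −2.14 for Srp54a and −1.22 for Srp54c. Srp54a and Srp54c without Srp54b gave ratios to vehicle of 0.998 (0.864 to 1.15) in oe-circ and 0.859 (0.743 to 0.993) in oe-pep. The share of Srp54b in the sum was 42.5% (38.9% to 46.1%) in the vehicle library, 33.7% (29.6% to 37.9%) in oe-circ and 11.6% (8.54% to 15.2%) in oe-pep, and that of Srp54c 41.9%, 50.3% and 69.7%. Srp54a kept between 15.6% and 18.7%, with overlapping intervals in the 3 libraries.

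**Figure D3:**
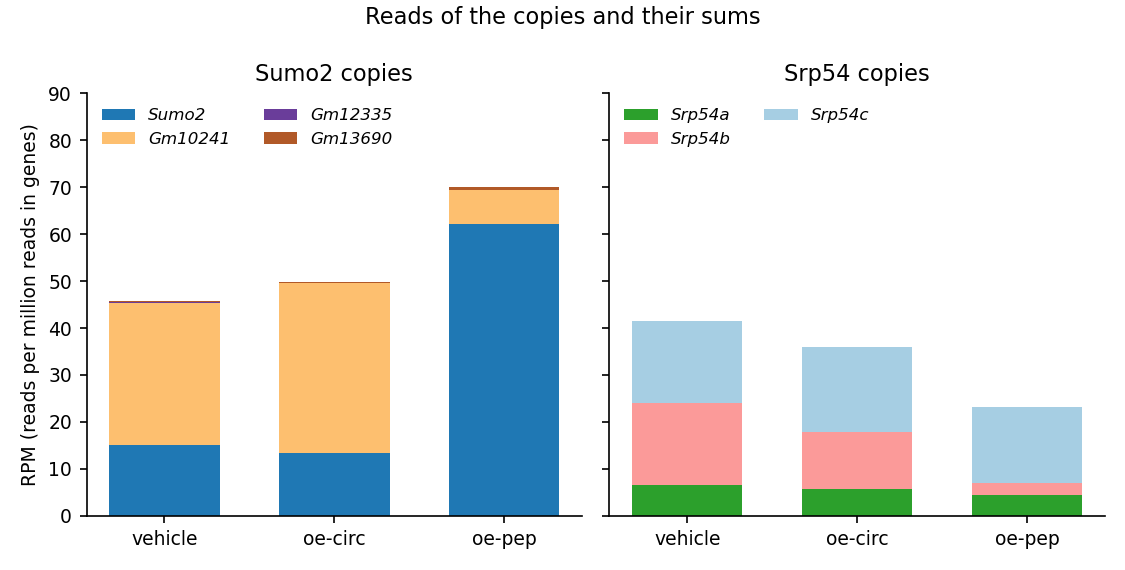
RPM (y axis) of the Sumo2 copies on the left and the Srp54 genes on the right, stacked by gene for the vehicle, oe-circ and oe-pep libraries, 1 library each. The Sumo2 stack is 45.7, 49.8 and 70.0 high and is mostly Gm10241 in vehicle and oe-circ and mostly Sumo2 in oe-pep, whereas the Srp54 stack is 41.4, 35.9 and 23.2 high with the least Srp54b in oe-pep.

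The genes that attach and remove SUMO proteins were at similar levels in the 3 libraries. Of 25 such genes, 0 were past 2-fold in either direction in any comparison, which is near the background of 0.33% to 1.04% per direction for genes averaging 20 or more reads. They had a median log2 fold change of 0.06 in oe-circ and 0.06 in oe-pep against vehicle, beside medians of all genes of −0.004 and −0.001. Against vehicle, their log2 values ran from −0.16 to 0.47 in oe-circ and from −0.16 to 0.29 in oe-pep. The highest in oe-circ was Uspl1, with a ratio of 1.40 (1.24 to 1.58). The highest in oe-pep was Desi1, which encodes a deSUMOylating peptidase. Sae1, a subunit of the activating enzyme, had an FPKM of 31.4 in vehicle, 33.2 in oe-circ and 29.6 in oe-pep. Trim28, a corepressor with SUMO ligase activity, had 29.1, 30.7 and 28.1, and Desi1 had 29.5, 29.7 and 36.2.

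Genes of the signal recognition particle and of ER targeting were likewise close between libraries. Of 22 genes other than Srp54, 0 were past 2-fold in any comparison, again near that background. In oe-pep against vehicle 18 were below 0 and 4 above, with a median of −0.10 beside −0.001 for all genes, and in oe-circ 14 were below 0 with a median of −0.05 beside −0.004. Srp14, another protein of the particle, had an FPKM of 57.6, 53.0 and 46.5 in the vehicle, oe-circ and oe-pep libraries. Sec62, of the ER translocon, had 43.3, 45.6 and 41.0. Spcs1, of the signal peptidase complex, had 33.4, 32.5 and 31.3, and Ssr3, of the translocon-associated complex, had 32.1, 30.9 and 30.1. The lowest log2 value in oe-pep was −0.48, in Sec61b, a subunit of the translocation channel, which had 314, 189 and 203 reads.

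**Figure D4:**
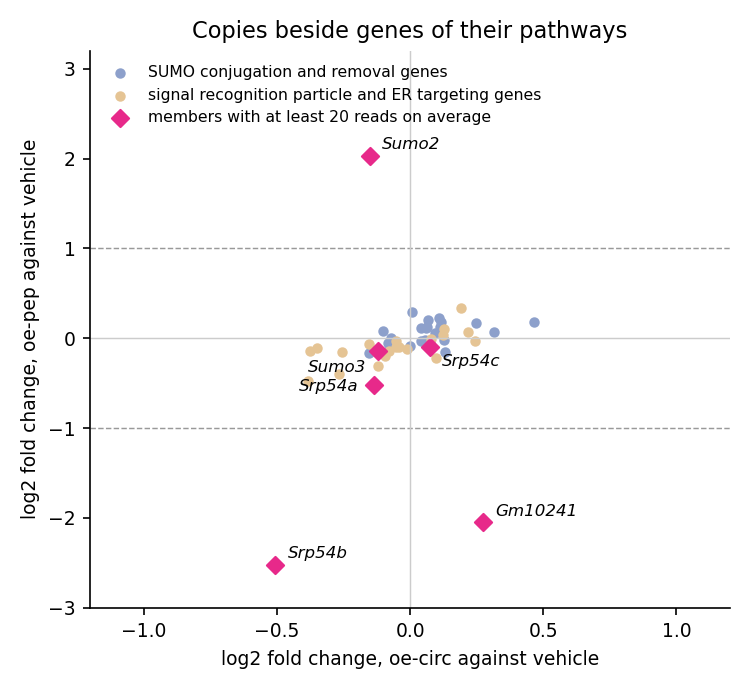
Log2 fold change of oe-circ against vehicle (x axis) and of oe-pep against vehicle (y axis) on the log2(FPKM + 0.1) scale, for the 6 genes of the report with a mean of at least 20 reads (diamonds), 25 SUMO pathway genes (blue) and 22 ER targeting genes (tan); dashed lines mark 2-fold on the y axis. Both axes share the vehicle library. Sumo2 at 2.03, Gm10241 at −2.04 and Srp54b at −2.52 on the y axis lie outside the dashed lines, and the pathway genes lie between −0.48 and 0.34.

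Few genes next to the copies were past 2-fold, as in the background. Within 250 kb of any of the 8 genes, 60 other genes had a mean FPKM of at least 1. Of these, 0 were past 2-fold in oe-pep against vehicle, with log2 values between −0.77 and 0.92, where 0.691% of the 13033 genes with that mean were past it upward and 0.691% downward. In oe-circ against vehicle 1 was past it upward (0.629% of such genes upward and 1.34% downward), Gm13687 near Gm13690, with 5, 10 and 9 reads. In oe-pep against oe-circ 2 were past it downward (1.14% upward and 0.645% downward), both miRNA genes. Mir132 near Gm12335 had 15, 23 and 13 reads with a log2 value of −1.02, and Mir684-1 near Gm13690 had 2, 2 and 1 reads, which is under the floor. Yeats2, the host of Gm10241, had 366, 320 and 431 reads in the vehicle, oe-circ and oe-pep libraries, with log2 values of 0.15 in oe-circ and 0.36 in oe-pep against vehicle. Smg6 (0.04 and −0.01), Dusp19 (0.12 and 0.38) and Nup35 (−0.15 and 0.17) were also within 2-fold. Libraries were made with a strand-specific kit, but the strand setting of the counting is not given in the sources used here, so reads of a copy and of its host intron cannot be told apart with certainty. Around the Srp54 genes, 8 other genes ranged from −0.21 to 0.70 in oe-pep.

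Of the 60 neighbors, 6 had a near-identical copy in another gene that did not overlap them, at 95% identity over at least 50% of a transcript. In the Srp54 region these were Ppp2r3c, a subunit of a protein phosphatase, with 311, 327 and 282 reads in the vehicle, oe-circ and oe-pep libraries, 1700047I17Rik2 with 70, 63 and 107, Gm2446 with 22, 31 and 19, and Gm49376 with 11, 9 and 11. Near Sumo2, Gm11703 had 89, 58 and 56 reads, and near Gm13690, Gm4735, which resembles Eno1, had 151, 138 and 155. In the Srp54 region some of these genes were copies of each other. The copies of Ppp2r3c and of Gm49376 included 1700047I17Rik2, and those of 1700047I17Rik2 and of Gm2446 included Ppp2r3c. Their single values are therefore uncertain in the same way as those of the Srp54 genes. None of the 6 was past 2-fold in any comparison.

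The genes whose pair of log2 fold changes lay nearest to those of the copies were found among 14550 others, over 3 libraries. For Sumo2 they were Yjefn3 (308, 231 and 797 reads, distance 0.53), Cdhr3 (12, 13 and 52, distance 0.56) and Ttr, which encodes a thyroid hormone carrier (155, 150 and 397, distance 0.71). For Gm10241 they were Ucp3, a mitochondrial carrier (57, 44 and 15, distance 0.63), Gm10591 (70, 64 and 26, distance 0.78) and Gm13123 (35, 26 and 12, distance 0.79). For Srp54b they were Gm10167 (37, 16 and 9, distance 0.91), Gm10241 itself (distance 0.91) and Cdhr1 (168, 102 and 50, distance 1.05). The distances are in log2 units, and none of these genes had a larger change in oe-pep than the copy it was compared with.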

How the data were processed

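PrL RNA was measured in 3 libraries, grouped by the vector named in the labels. The table the authors deposited holds the FPKM, length and mm10 position of 54532 genes. Tools in the submitters' processing notes were HISAT2 2.1.0, featureCounts 1.6.3 and cutadapt 2.5. The product of FPKM and length came in whole multiples of 1 step per library, with a largest deviation of 7.74e-09 reads, which gave the reads. The number behind the authors' scaling was 1.01 to 1.02 times the reads in genes. FPKM ratios used the authors' scaling, and sums were scaled to reads in genes. With 1 library per group no test was made. Intervals are exact Poisson, Clopper-Pearson and conditional binomial intervals at 95%.

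The genes and gene lists were chosen with earlier results of these data known. Named were the 8 genes, list members past 2-fold or among the 4 highest by mean FPKM, neighbors past 2-fold or with a copy, and the 3 nearest patterns of Sumo2, Gm10241 and Srp54b by Euclidean distance. Sec61b and the host genes were added after their values were seen. Some list members that this rule names are not reported here.

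Sequences came from the GENCODE vM21 transcripts of mm10, in which 99.8% of the gene identifiers were found. Windows were searched in annotated transcripts alone, and a genome sequence and proteins were not used here. Alignments were made with minimap2 2.31-r1302 and Biopython 1.88, and values with scipy 1.17.1, pandas 2.3.3, numpy 2.4.6 and matplotlib 3.10.9 in Python 3.11.15. The steps were tested on simulated data. Alternatives were other pseudocounts, scaling, filters, sums, windows and identity thresholds.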

Additional observations from a re-analysis of the deposited data

How the results depend on the processing

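The Sumo2 sum turned its direction when FPKM were added in place of reads, to a ratio of 0.549 in oe-pep against vehicle and 0.464 in oe-pep against oe-circ, since the copies differ in length. With Sumo3 added it moved to 1.09, 0.963 and 1.14 in oe-pep against vehicle, oe-circ against vehicle and oe-pep against oe-circ. It stayed within its interval under median ratio scaling, without mitochondrial genes, with Sumo2 and Gm10241 alone, and with all 12 annotated genes of at least 95% identity to the Sumo2 coding sequence, an alternative chosen after seeing the data. The Srp54 sum stayed within its interval in all of its alternatives. Of the 60 log2 fold changes under other settings that have a counting interval, 58 stayed within it. Those of Srp54b moved to −1.60 (oe-pep against vehicle) and −1.21 (oe-pep against oe-circ) with a pseudocount of 1. Gm12335 has no interval and moved from −2.57 in oe-pep against vehicle to −5.66 with a pseudocount of 0.01 and −0.58 with 1, and from −1.63 to −0.28 in oe-pep against oe-circ with 1. It was past 2-fold in oe-circ against vehicle with 0.01. Gm13690 moved from 1.27 to 0.74 in oe-pep against oe-circ with 1. Of 21 shares of a sum, 13 left their intervals as shares of FPKM. The counts of all genes past 2-fold, reported as background, were 707 higher and 1297 lower in oe-circ against vehicle, 917 and 995 in oe-pep against vehicle, and 1265 and 870 in oe-pep against oe-circ. They became 70, 153, 109, 107, 157 and 94 in that order with a pseudocount of 1, 82, 174, 90, 90, 148 and 84 with a mean FPKM of at least 1, and 148, 308, 189, 188, 312 and 176 for protein-coding genes alone. Without a filter 4 of them moved by more than 1.5 times, to 1090 higher in oe-circ against vehicle, 1444 higher and 1624 lower in oe-pep against vehicle, and 1318 lower in oe-pep against oe-circ. The fall in these counts comes with fewer genes tested or smaller fold changes by construction. No paired analysis was possible because each group had 1 library, and no replicate could be left out. Depth limits Gm12335 and Gm13690, which had at most 9 reads.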

Other observations

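Opposite changes within a pair of near-identical genes were looked for in all genes after those of Sumo2 and Gm10241 had been seen. Of 602 pairs in which a transcript matched the other gene at 95% identity over at least 50% of its length, both genes averaging 20 or more reads, 3 had members past 2-fold in opposite directions in oe-pep against vehicle, 1 in oe-circ against vehicle and 1 in oe-pep against oe-circ. Sumo2 and Gm10241 were the pair in oe-pep against oe-circ. Beside them in oe-pep against vehicle stood Ccl21b, a chemokine gene, with 4, 30 and 35 reads in the vehicle, oe-circ and oe-pep libraries against 70, 64 and 26 in Gm10591, and the dynein light chain genes Dynlt1b, with 20, 23 and 42, and Dynlt1c, with 29, 25 and 8. The pair in oe-circ against vehicle was Gm6741, with 5, 44 and 25 reads, and Nanp, which encodes a sialic acid phosphatase, with 39, 5 and 29.

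A larger share of the genes with such a copy was past 2-fold in these libraries. Here a gene had a copy when a match covered at least 50% of its own longest transcript. No match covered that much of Sumo2, so Sumo2 was among the genes without a copy. Gm10241 and the Srp54 genes were among those with one. Among genes that averaged 20 or more reads, 3.13% of 639 genes with a copy and 0.640% of 13912 without were past 2-fold in oe-pep against vehicle. In oe-circ against vehicle the shares were 4.38% and 1.23%, and in oe-pep against oe-circ 4.07% and 1.12%. At 90% identity the shares with a copy were 2.79%, 3.71% and 3.45%. These shares describe 3 libraries and carry no test. Genes with and without a copy were not matched for read number or transcript length. Those with a copy include Gm10241 and Srp54b, which were chosen with their changes in these libraries known. Other annotated copies of the Sumo2 coding sequence had few reads. Smt3h2-ps4, with 1 mismatch over 288 bases, had 15, 11 and 11 reads, and Gm9836 had 7, 4 and 1.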
